A study of Mus musculus with 19 samples.

Results

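The clustered protocadherin genes were examined as a family in a genome-wide map of SOX3 binding in the juvenile mouse testis. Members were all genes of the mm10 RefSeq annotation with a symbol of the Pcdha, Pcdhb or Pcdhg series followed by a number, or by c and a number. There were 58 of them among 26182 genes, all on the plus strand of chromosome 18 within 911.6 kb (GRCm38/mm10, 36930285 to 37841873), and each had a single start site. The samples were 2 replicates of SOX3 ChIP-seq from whole mouse testis at postnatal day 7 (P7). For SOX3 ChIP, 1 antibody is named in the study's methods and 2 are listed in its reporting summary. The study's methods describe seminiferous tubules pooled from 3 mice and a C57BL/6J background. No genetic change or treatment is named for these samples. There was 1 group and no control with a deposited peak list, so values are compared between the replicates and between gene sets, and no test between groups of samples was possible. Peak lists hold no expression values, so the tissue label could not be checked against marker genes, and the cells that gave a peak in whole tissue cannot be told apart.

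SOX3 is an X-linked HMG-box transcription factor of the SOXB1 group, known in neural progenitors and in undifferentiated spermatogonia. The clustered protocadherins are cell adhesion proteins best known from neurons, where each cell uses a few of them as a surface identity. In the alpha and gamma clusters, each member begins with its own large variable exon and its own promoter, and that exon is spliced to constant exons shared by the whole cluster. Beta genes lack the constant exons. Most of these promoters carry a short conserved element with the core CGCT, and CTCF and cohesin are known to bring them to distant enhancers. The members called C-type (Pcdhac1, Pcdhac2, Pcdhgc3, Pcdhgc4 and Pcdhgc5) lie at the ends of the alpha and gamma clusters, and in neurons they are generally chosen in a different way from the alternate members.

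The alpha cluster (36930285 to 37188897, 258.6 kb) held 14 members, 12 of them alternate isoforms Pcdha1 to Pcdha12 and 2 of C-type. The beta cluster (37264998 to 37521419, 256.4 kb) held 22 members. The gamma cluster (37661775 to 37841873, 180.1 kb) held 22 members, 19 of the A and B types and 3 of C-type. Pcdhgb8 is annotated as a transcribed pseudogene and was kept. The annotated RefSeq genes Gm37013, Gm38666 and Gm38667 start inside the alpha cluster and read through to the end of the gamma cluster. They were not counted as members, and none of these 3 had a promoter peak.

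Few members had a SOX3 peak at the promoter, taken as 2 kb to each side of the start site. A peak was present at 10 of 58 members in replicate 1 (17.2%) and at 6 of 58 in replicate 2 (10.3%), a mean of 13.8% ± 4.88 (SD, n = 2). Among all RefSeq genes the same criterion was met by 62.7% in replicate 1 and 54.7% in replicate 2. Pcdhga11, Pcdhgc3 and Pcdhgc4 had a promoter peak in both replicates. These 3 members are 5.17% of the family, with an exact binomial 95% interval of 1.08% to 14.4% that covers counting over genes only. The share of all genes with a peak in both was 52.2%, and of protein-coding genes 57.9%. Peaks of the replicates overlapped at 2 members, Pcdhgc3 and Pcdhgc4, where the share of all genes with overlapping promoter peaks was 50%. In all, 13 members had a peak in at least 1 replicate (22.4%, against 65.2% of all genes) and 45 had none. The gap between the family and all genes was larger than the difference between the replicates in each of these counts.

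The clusters were unlike each other. None of the 12 alternate alpha promoters had a peak in either replicate. Of the 22 beta promoters, 1 had a peak, in replicate 1 only. Of the 19 gamma A and B promoters, 5 had a peak in replicate 1 and 4 in replicate 2, and 1 of them, Pcdhga11, in both. Of the 5 C-type promoters, 4 had a peak in replicate 1, 2 in replicate 2 and 2 in both. The C-type members were thus the subgroup with the highest share in both replicates, 80% in replicate 1 and 40% in replicate 2, but 5 genes are few.

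**Figure D1:**
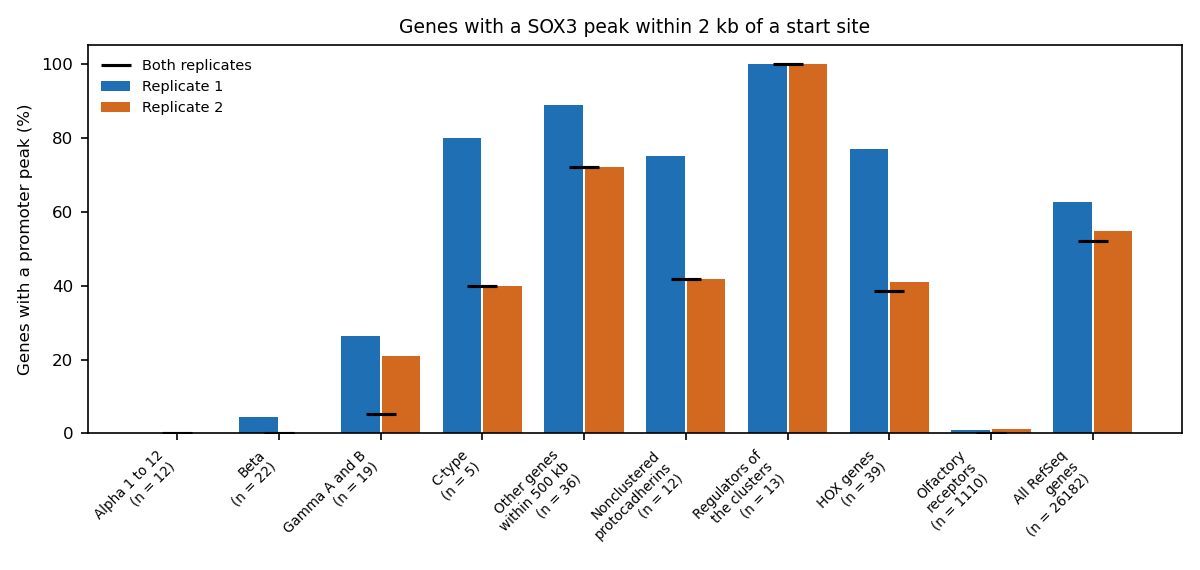
Percentage of genes with a SOX3 ChIP-seq peak within 2 kb of a start site, in replicate 1 (blue bars), replicate 2 (orange bars) and both (black lines), with the number of genes under each group. The 12 alternate alpha members stand at 0% and the other genes within 500 kb at 88.9% and 72.2%.

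The strongest peak in the 3 clusters lay at Pcdhgc3, the first C-type promoter of the gamma cluster. The q score of a peak is the scaled −log10 of its FDR-adjusted p-value, as the peak caller gives it, and the log2 ratio is ChIP over input. Peaks covered the Pcdhgc3 start site (37806410) in both replicates. The replicate 1 peak ran from 682 bp upstream to 1604 bp downstream, with a q score of 141.0 and a log2 ratio of 3.32. The replicate 2 peak ran from 740 bp upstream to 1452 bp downstream, with a q score of 111.4 and a log2 ratio of 3.32. These q scores exceeded those of 86.3% and 91.1% of all peaks in their lists. Over all genes with a promoter peak the median q scores were 165.4 and 78.8. Pcdhgc3 thus lay below the median of bound genes in replicate 1 and above it in replicate 2. No other member passed a q score of 60 in both replicates.

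Pcdhgc4, the next C-type gene, also had overlapping peaks, but they differed in strength. In replicate 1 the peak ran from 1588 bp upstream to 1036 bp downstream of the start site with a q score of 127.1. In replicate 2 the peak lay wholly downstream, from 351 to 942 bp, with a q score of 39.5. Their ranks were the 85.2 and 48.96 percentiles of the respective lists.

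Pcdhga11 was counted in both replicates through peaks at different places. The replicate 1 peak covered its start site, from 88 bp upstream to 835 bp downstream, with a q score of 71.0 and a log2 ratio of 4.16. The replicate 2 peak lay from 2474 to 1964 bp upstream with a q score of 31.2, inside the first exon of the neighbouring Pcdhgb7. It was the same peak that counted for Pcdhgb7, whose start site is 1680 bp before it. The peaks at Pcdhga11 did not overlap, and the replicate 2 peak only just reached its window.

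The other C-type members gave peaks in replicate 1 or in neither. At Pcdhac2 a replicate 1 peak covered the start site (q score 38.9, log2 ratio 2.80), and the nearest replicate 2 peak was 341495 bp away. Pcdhgc5 had 2 replicate 1 peaks in its window, at 2007 to 1462 bp upstream (q score 32.6) and at 633 to 1274 bp downstream (q score 41.4). The nearest replicate 2 peak was 2423 bp from the Pcdhgc5 start site, just outside the window. Pcdhac1 had no promoter peak, and its nearest peaks were 53321 bp away in replicate 1 and 287953 bp away in replicate 2. C-type promoters therefore ranged from overlapping peaks with q scores above 60 in both replicates, at Pcdhgc3, to none, at Pcdhac1.

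Among the other A and B types and the beta genes, peaks were in single replicates, with q scores of 31.2 to 49.9. In replicate 2, Pcdhgb4 had a peak with a q score of 49.9 at 1533 to 2384 bp downstream, and Pcdhga2 had one with a q score of 40.8 over the start site. In replicate 1, Pcdhga12 had a peak with a q score of 43.3 at 910 to 2683 bp downstream, and Pcdhga10 had one with a q score of 38.9 over the start site. The remaining members with a peak in a single replicate were Pcdhgb2, Pcdhb17 and Pcdhga6 in replicate 1 and Pcdhgb7 in replicate 2, with q scores of 31.2 to 35.7. They were named after their values were seen, to complete the 13. Pcdhb17 was the beta gene with a peak, and that peak began 1533 bp after the start site. Pcdhb1, the first beta gene, had its nearest peaks at 84293 bp in replicate 1 and 378670 bp in replicate 2.

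**Figure D2:**
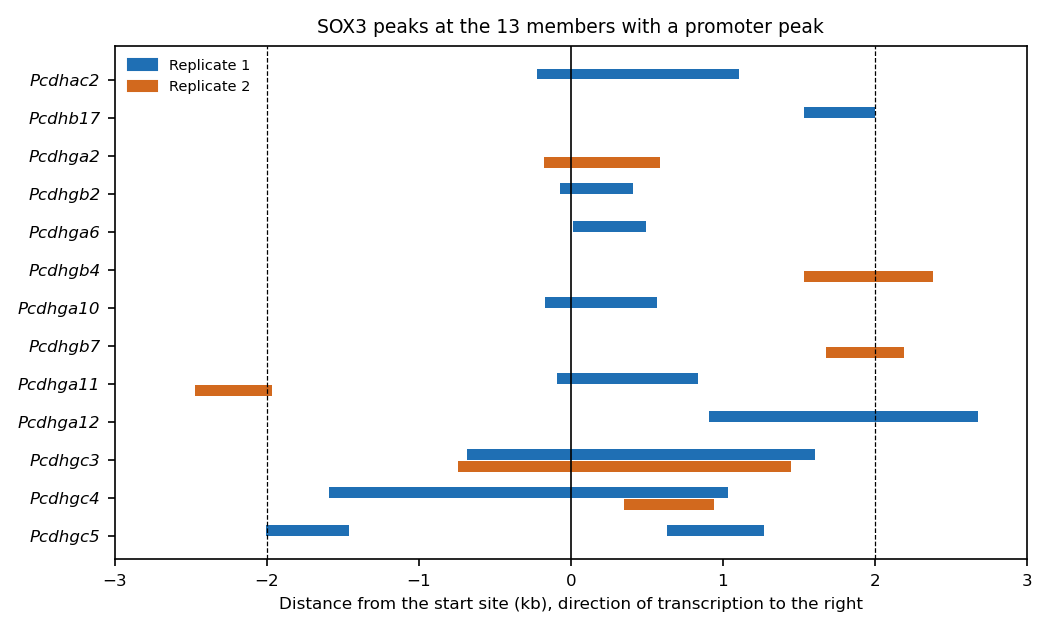
Extent of each SOX3 peak relative to the start site, in kb, at the 13 members with a promoter peak in at least 1 replicate (replicate 1 blue, replicate 2 orange; dashed lines mark 2 kb). The bars of the replicates overlap at Pcdhgc3 and Pcdhgc4, and at Pcdhga11 they lie apart.

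Where members had a promoter peak, it was weaker than at most bound genes. The strongest peak of each bound member had a median q score of 40.1 in replicate 1 (10 members, 32.6 to 141.0) and 40.2 in replicate 2 (6 members, 31.2 to 111.4). Over all genes with a promoter peak the medians were 165.4 and 78.8. The member medians stood at the 46.2 and 51.2 percentiles of all peaks in each list, near the middle, and those of all bound genes at the 88.1 and 84.0 percentiles. The medians of the log2 ratio did not follow one order. For members they were 2.88 in replicate 1 and 3.12 in replicate 2, against 3.67 and 2.72 for all bound genes. Low peaks carry few distinct values, since 98.7% and 98.6% of the peaks in the 2 lists shared both q score and log2 ratio with another peak, including every peak in the 3 clusters. Pcdhac2 and Pcdhga10, for example, had the same q score and log2 ratio in replicate 1.

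Peaks anywhere in the 3 clusters, exons and introns included, showed the same unevenness. Replicate 1 had 18 peaks in the clusters, 3 in alpha, 1 in beta and 14 in gamma. Replicate 2 had 7, all in gamma. The gamma cluster had 77.7 peaks per Mb in replicate 1 and 38.9 per Mb in replicate 2, against 24.1 and 16.04 per Mb over the autosomes. The 500 kb after the locus had the like densities of 78 and 38 per Mb, and the 500 kb before it had 40 and 32 per Mb. The alpha cluster had 11.6 and 0 per Mb and the beta cluster 3.90 and 0 per Mb, below the autosomal density in both replicates.

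Within the gamma cluster the peaks gathered at the C-type end. From 2 kb before the Pcdhgc3 start site to the end of the cluster (37.5 kb) there were 9 peaks in replicate 1 and 4 in replicate 2. The density there was 240 per Mb and 107 per Mb, and peaks covered 33.4% and 12.8% of the sequence. Before that point, along the A and B genes, there were 5 and 3 peaks, or 35.1 and 21.03 per Mb. Every position that overlapped between replicates, even by 1 bp, lay in the C-type end. There were 4 such positions. Besides the promoters of Pcdhgc3 and Pcdhgc4, a pair lay at the end of the Pcdhgc5 variable exon (37821803 to 37822810 with a q score of 62.6 in replicate 1, 37821969 to 37822502 with a q score of 31.4 in replicate 2). The last pair lay between constant exons (37835199 to 37837313 with a q score of 57.4, and 37835030 to 37836490 with a q score of 42.4). In replicate 1 alone, a peak with a q score of 44.7 covered the first constant exon of the gamma cluster (37825021 to 37825079), which all 22 gamma members share.

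Outside the promoters, the alpha cluster had 2 peaks, both in replicate 1. The stronger (37177989 to 37178891) had a q score of 76.9 and lay in the intron before the last constant exon, 6.06 kb from it. It had no overlapping peak in replicate 2.

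With at least 50% of a peak covered, 3 of 18 cluster peaks of replicate 1 were found in replicate 2 (16.7%), and 4 of 7 of replicate 2 were found in replicate 1 (57.1%). Over all peaks the shares were 25.1% and 48.4%. The cluster peaks were therefore below the whole list in 1 direction and above it in the other. With so few peaks the exact binomial intervals (3.58% to 41.4% and 18.4% to 90.1%) included the shares of the whole lists. These intervals treat neighbouring peaks as independent and cover counting over peaks only, not the spread between the replicates.

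**Figure D3:**
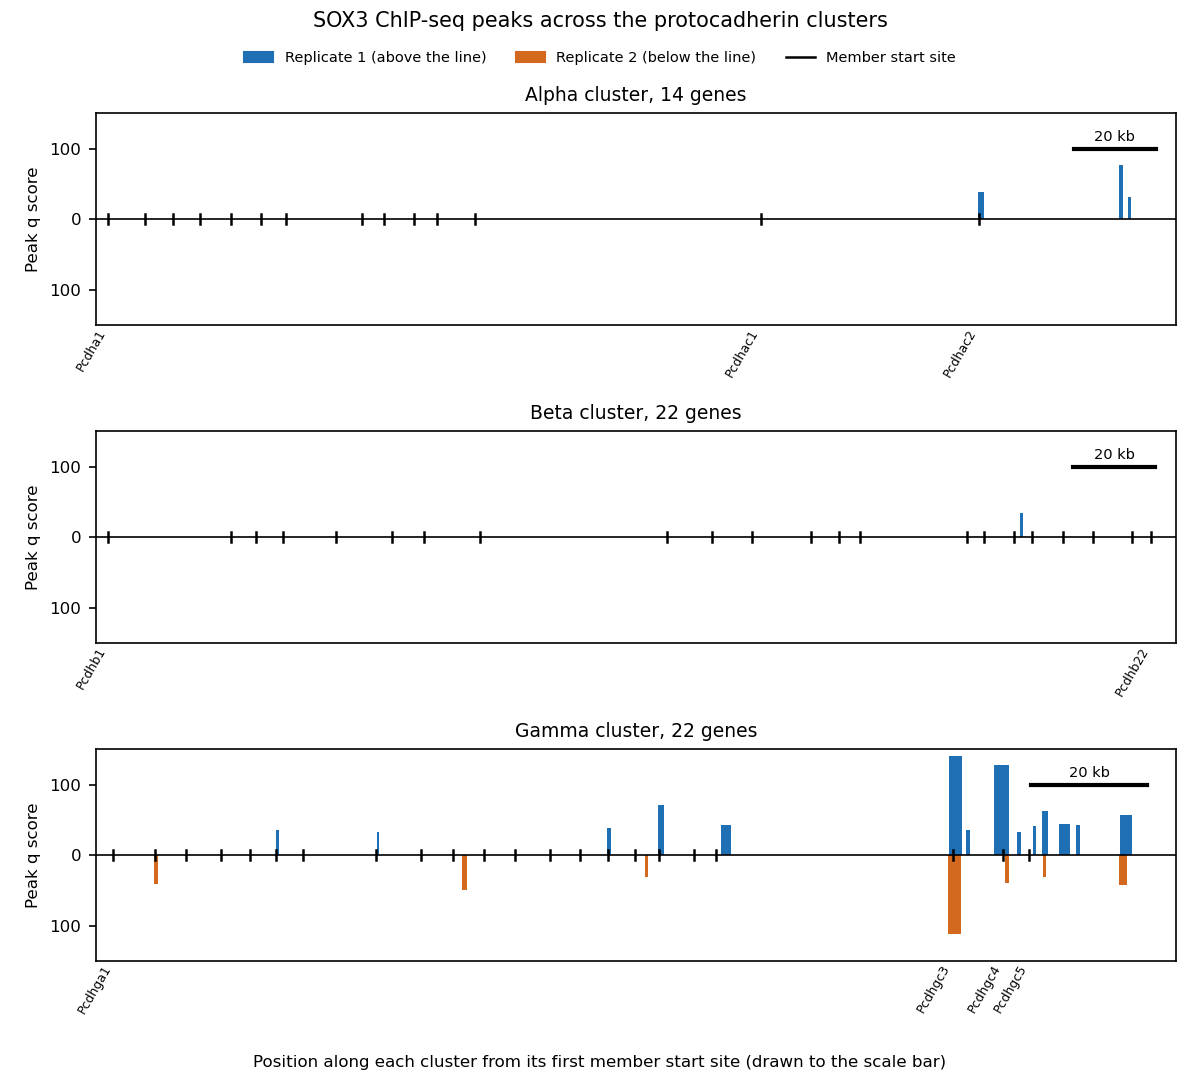
SOX3 peaks along the 3 clusters, each panel drawn to its own 20 kb scale bar, with bar height giving the q score of each peak (replicate 1 above the line, replicate 2 below) and ticks marking the 58 start sites (narrow peaks are widened to stay visible). The bars gather at Pcdhgc3, Pcdhgc4 and Pcdhgc5, and the alpha and beta panels have no replicate 2 bar.

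Long stretches without a peak covered the alpha and beta genes. In replicate 1 a stretch of 341.2 kb held the promoters of 13 members, from Pcdha1 to Pcdhac1, and a second of 305.8 kb held 16, from Pcdhb1 to Pcdhb16. In replicate 2 a single stretch of 841.5 kb held all 36 alpha and beta promoters. Gaps between autosomal peaks had a median of 8.02 kb in replicate 1 and 14.5 kb in replicate 2. The longest stretches were longer than 98.1% and 98.8% of autosomal gaps. Gaps as long were still common in the genome, with 455 on the autosomes in replicate 2. The median distance from a member start site to the nearest peak was 22.4 kb in replicate 1 and 148.6 kb in replicate 2, against 0 and 0.657 kb over all genes.

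Genes next to the clusters had peaks at a higher rate. Readthrough genes aside, 36 other genes had a start site inside or within 500 kb of the locus. Of these, 32 had a promoter peak in replicate 1 and 26 in replicate 2, and these 26 (72.2%) had one in both. Among all genes the shares were 62.7%, 54.7% and, in both, 52.2%. Peaks of the replicates overlapped at 23 of the 36 (63.9%), against 50% of all genes. The promoters of the 36 had a median GC content of 55.7%, against 45.2% in members. Pfdn1, Hbegf and Ankhd1, upstream of the alpha cluster, had peaks in both, which did not overlap at Pfdn1, and Slc4a9 had none. Between the beta and gamma clusters lie Slc25a2, which had no promoter peak, and Taf7, a subunit of the general transcription factor TFIID. Taf7 had overlapping peaks with q scores of 205.9 and 63.997. Slc25a2 and Taf7 were picked out by their place between the clusters. Before the alpha cluster, the peak nearest to Pcdha1 was 127996 bp away in replicate 1.

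Related genes elsewhere had peaks more often than the clustered members. Of 12 nonclustered protocadherins, which have their own separate loci, 9 had a promoter peak in replicate 1, 5 in replicate 2 and 5 in both. The 5 were Pcdh1, Pcdh7, Pcdh8, Pcdh9 and Pcdh10. Pcdh7 had q scores of 105.8 and 47.5, and Pcdh1, which lies beyond the gamma cluster on the same chromosome, had q scores of 34.1 and 34.5. Of 6 classical cadherins, the calcium-dependent adhesion proteins, 3 had a peak in both replicates, namely Cdh2, Cdh3 and Cdh5. These shares in both, 41.7% and 50%, were below the 52.2% of all genes. In replicate 1 they were 75% and 83.3%, against 62.7%, and in replicate 2 41.7% and 66.7%, against 54.7%. Peaks of the replicates overlapped at 4 of the 12 and 2 of the 6 (33.3% in each), against 50% of all genes. At Pcdh1 and Cdh5 they did not overlap. Both lists were small, and their replicates differed by more than those of the clustered family.

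Genes that act on the clusters had peaks without exception. All 13 regulators examined had overlapping promoter peaks in the 2 replicates. They were Ctcf, the insulator protein, the cohesin subunits Rad21, Smc1a, Smc3, Stag1 and Stag2, the cohesin loader Nipbl and releasing factor Wapl, the repressors Smchd1, Setdb1 and Rest, and the DNA methyltransferases Dnmt3a and Dnmt3b. Ctcf had q scores of 474.9 and 147.6. All 8 cytoplasmic partners, kinases and WAVE complex subunits that bind protocadherin tails or act beneath them, had a peak in both, and 7 of the 8 had overlapping peaks. Ptk2, the focal adhesion kinase, had q scores of 431.3 and 168.6. The background was 52.2% for a peak in both replicates and 50% for overlapping peaks. All 13 regulators and 6 of the 8 partners had CpG-rich promoters as defined in the next paragraphs. Of all genes with such promoters, 89.2% had a peak in both replicates.

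Other tandem gene families fell on either side. Of 39 HOX cluster genes, 15 had a promoter peak in both replicates (38.5%), with 30 in replicate 1 and 16 in replicate 2. Of 1110 olfactory receptor genes, 1 had a peak in both, with 11 in replicate 1 and 13 in replicate 2. The clustered protocadherins lay between these families in each replicate. These 2 families were added as a comparison after the peak lists were seen.

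The ratio of observed to expected CpG in the 1 kb around the start site had a median of 0.573 in members and 0.512 in all genes. All 14 alpha promoters were at 0.6 or above, and 12 of 22 gamma promoters were. No beta promoter reached 0.6, and the beta values ran from 0.158 to 0.554. Over all genes the share with a peak in both replicates climbed with this ratio, from 7.59% below 0.2 to 54.1% between 0.4 and 0.6 and 84.4% between 0.6 and 0.8. Among members the shares were lower, and the 3 members with a peak in both were too few to show a trend. None of the 32 members below 0.6 had a peak in both replicates, 18 of them between 0.4 and 0.6. Of 24 members between 0.6 and 0.8, 2 had a peak in both (8.33%). Of 2 between 0.8 and 1, Pcdhga11 had, through peaks that did not overlap. In the single replicates, 5 of the 32 members below 0.6 had a peak in replicate 1 and 1 in replicate 2. In replicate 1 the member share was 15.4% between 0.2 and 0.4, 16.7% between 0.4 and 0.6 and 16.7% between 0.6 and 0.8. In replicate 2 it was 0%, 5.56% and 16.7% in the same ranges.

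At 0.6 or above, 26 members could be set beside 11389 genes. A promoter peak was present at 5 of the 26 members in replicate 1 and at 5 in replicate 2 (19.2% in each), against 95.8% and 90.1% of the genes. In both replicates it was 3 members (11.5%) against 89.2%. The members with these CpG-rich promoters had a lower GC content than most such genes, so the set was split at 50% GC. Below it were 21 members, with a median of 46.4% GC and 37 CpG per kb, and 332 other genes, with a median of 48.2% GC and 39 CpG per kb. A peak in both replicates was present at 1 of the 21 (4.76%, Pcdhga11) and at 222 of the 332 (66.9%). In the single replicates the shares were 9.52% and 9.52% of the members against 82.8% and 68.1% of the others. The 5 CpG-rich members from 50% GC upward were Pcdhac1, Pcdhac2, Pcdhgb7, Pcdhgc3 and Pcdhgc4, of which 2 had a peak in both, against 90.02% of 11031 other genes. For these 5 the share was 60% in each single replicate, against 96.4% and 90.9% of the other genes.

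**Figure D4:**
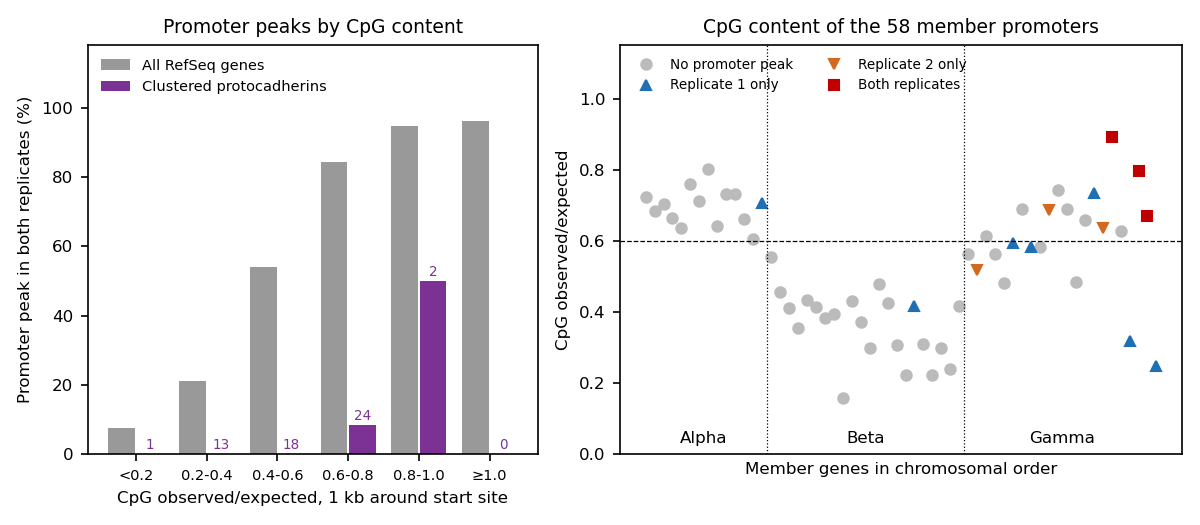
Left, the percentage of genes with a promoter peak in both replicates by CpG observed/expected ratio, for all RefSeq genes (grey) and the clustered protocadherins (purple, number of members above each bar). Right, the ratio at each of the 58 member start sites in chromosomal order, marked by the replicates with a peak. The alpha members all lie on or above the dashed line at 0.6 and nearly all lack a peak.

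Short SOX motifs were more frequent at member promoters than at all genes in the 1 kb window, and less so in a shorter one. AACAAT, read on both strands in the same 1 kb, was present at 29 of 58 members and at 28.8% of all genes. AACAAAG was present at 35 members (60.3%) and at 17.6% of all genes. From 250 bases before to 50 after the start site, AACAAT was at 7 members (12.1%) against 9.80% of all genes, and AACAAAG at 8 (13.8%) against 5.35%. In the 1 kb window the C-type promoters had AACAAT at 0 of 5 and AACAAAG at 1 of 5. The 45 members with no peak had AACAAT at 25 (55.6%) and AACAAAG at 30 (66.7%), and the 13 with a peak had them at 4 (30.8%) and 5 (38.5%). Matches were thus less frequent by count at the members with a peak. They were counted within 500 bases of the start site and not under the peaks, some of which lay wholly outside that window. These letters are short and rich in A and T, and member promoters had a median GC content of 45.2% against 54.4% for all genes. The core CGCT was present at all 58 members within 1 kb, where 87.8% of all genes had it. In the 300 bases it was present at 57 members, against 67.4% of all genes. Only these letters on either strand were counted, and not the whole conserved element.

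Because the variable exons resemble each other, the uniqueness of 50-base words in the promoter windows was measured. The methods state that reads fitting several places were assigned at random, and the ChIP-seq reads were 50 bases long. The median share of words found once in the genome was 96.8% over the 58 windows, and 52 windows had at least 90%. The lowest was Pcdha6 with 83.4%. By cluster the medians were 91.2% for alpha, 97.3% for beta and 98.1% for gamma. All 5 C-type windows were at 100%, and Pcdhb1 was at 98.3%. Only exact matches were counted, so a word that differed by a single base from another place counted as unique. The part of repeated or similar words in the peak counts was not tested.

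ChIP-nexus, in which an exonuclease trims the precipitated DNA toward the protein, was also made for SOX3 in 2 replicates. Of 110 peaks on mouse chromosomes in replicate 1 and 18 in replicate 2, none lay in the locus or within 2 kb of a member start site. The lists are so short that the absence of a peak there has little weight.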

How the data were processed

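Of 19 labelled samples, the 4 SOX3 ones came with a peak list and the 15 others were not analysed here. The study's methods give alignment of 50-base reads to mm10 by Novoalign 4.04.01 with random placement of reads fitting several places, then duplicate removal by Picard 2.7.1. USeq 8.9.6 was used by the authors to call ChIP-seq peaks in each replicate, keeping q scores above 30. Since the deposited lists of these peaks carry no header, their columns, a p score and a q score (both a scaled −log10) and a log2 ratio of ChIP over input, were named from the caller's layout and the values. The deposited ChIP-nexus lists follow the MACS2 2.1.1 format, with a score, fold enrichment, −log10 p and −log10 q for each peak; only the positions of these peaks were used. The lists hold no read counts, so depth is unknown from them. By the study's read numbers, replicate 2 was sequenced more deeply than replicate 1. The lists had 58351 and 38832 ChIP-seq peaks, and their number limits the precision. The methods name removal of blacklisted regions with BEDTools, but not whether these per-replicate lists had passed it.

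Start sites were those of 45756 RefSeq curated transcripts (GRCm38.p6). A promoter peak overlapped the 2 kb to either side of a start site by at least 1 bp. A peak lay in a cluster when its centre did, and counted as found again if 1 peak of the second list covered at least 50% of its length. Promoter counts and shared peaks equalled those of bedtools 2.31.1, and the overlap code was tested on simulated data. Intervals are exact binomial (Clopper-Pearson). The study describes the replicates as independent biological ones. Values are given for members with a peak in both replicates, for the strongest 6 with a peak in 1, and always for the C-type members and Pcdhb1; comparison lists give up to 4 examples. The members and lists were chosen with earlier results of these data known. Python 3.11.15, numpy 2.4.6, pandas 2.3.3 and scipy 1.17.1 were used. No promoter sequence is printed.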

Additional observations from a re-analysis of the deposited data

How the results depend on the processing

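Of 21 alternatives, 13 stayed within the limits set for no change, 8 moved a value and none reversed one. The limits were wide, and changes from 3 members to 2, from 12.5 peaks to 18 and from 36.9% to 60% fell within them. The number of members with a promoter peak in both replicates, 3, became 1 with q scores above 60 (Pcdhgc3, where 35.2% of all genes passed), 5 with a 5 kb window (adding Pcdhgb7 and Pcdhgc5, against 56.4%) and 13 when a peak in at least 1 replicate was enough. It was 6 without replicate 1 and 10 without replicate 2. It was 2 with a 1 kb window and 2 with overlapping peaks required, since Pcdhga11 was then lost. GENCODE M21 start sites, and cutting the replicate 1 list to the length of replicate 2, an alternative chosen after seeing the data, kept it at 3; the shorter list had 7 members in replicate 1. The mean number of cluster peaks, 12.5, became 3 with q scores above 60, and was 7 without replicate 1 and 18 without replicate 2. It was 13 with a 1 bp overlap with a cluster. Counted over the span of the start sites with 2 kb at each side, it was 8.5. The share of cluster peaks found in the other replicate, 36.9% on average, was 39.7% with an overlap of 1 bp and 60% with q scores above 60, the latter from 1 of 5 and 1 of 1 peaks; leaving out a replicate gave no value, since there was then no other replicate. The mean percentile of member promoter peaks, 48.7 by q score, was 58.9 by log2 ratio and from 46.2 to 51.2 without a replicate. No paired analysis was possible because the result came from no test between groups: replicate numbers recur in ChIP-seq and ChIP-nexus, but their lists were not compared by a test.

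The lists show called peaks and not coverage, and signal below the threshold is not visible in them. The shorter list came from the more deeply sequenced replicate, and it limits every count that requires both replicates.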
